A study of Mus musculus with 18 samples.

Results

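The cells described here are reporter-negative Smndc1-knockdown cells. They are alphaTC1 cells, a mouse line of pancreatic alpha cells, that received an shRNA against Smndc1 together with RIP-mCherry, in which the rat insulin promoter drives a red fluorescent protein, and were then sorted for absence of the reporter's signal (shSmndc1_RIP_neg, 4 libraries, called negative cells). They were set against alphaTC1 cells with the empty vector and the same reporter (EV_RIP, 4 libraries). These 8 libraries were taken by their labels out of the 18 of the series, which asks how SMNDC1 links chromatin remodelling and splicing to hormone expression. The others are 4 libraries of reporter-positive cells with the shRNA (shSmndc1_RIP_pos, called positive cells) and 6 libraries without the reporter, 3 of unsorted cells with the shRNA (shSmndc1) and 3 with the empty vector (EV), taken 5 days after transduction. All 12 libraries of the reporter experiment therefore share the cell line, transduction and the reporter. The labels do not identify the shRNA further, give no day for the reporter experiment and do not say whether EV_RIP cells passed through the sorter, so the shRNA, the sort and the gate on low reporter signal cannot be told apart in this comparison.

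SMNDC1, also called SPF30, is a Tudor-domain protein of the spliceosome. The p53 protein is normally kept low by its own target Mdm2, an E3 ubiquitin ligase, and when it accumulates it turns on genes that stop the cell cycle, repair DNA or start cell death. Immediate-early genes such as Fos, Jun and Egr1 encode transcription factors whose mRNAs are short-lived and are made without new protein synthesis. In the circadian clock, CLOCK and its partner BMAL1 (encoded by Arntl) activate genes through E-boxes, among them the repressors Per, Cry, Bhlhe41 and Ciart and the nuclear receptor Nr1d1 (REV-ERB alpha). Alpha cells store glucagon in dense-core granules and process it with the protease PCSK2.

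Total counts (in units of 1e+06) were 38.9, 80.8, 8.08 and 23.7 in negative libraries 1 to 4, against 49.3 to 103.05 in EV_RIP, so that negative library 3 has the least precise values. Rn7sk, a small nuclear RNA that is not polyadenylated, stood at 4.53, 18.6, 161 and 45.4 CPM (counts per 1e+06 counts, TMM-scaled) in negative cells, against 5.24 to 14.2 CPM in EV_RIP. Mitochondrial transcripts made up 2.99% to 3.94% of the counts of negative cells and 2.34% to 3.98% in EV_RIP libraries 2 to 4, but 0.587% in EV_RIP library 1. Negative libraries 3 and 4 stand apart by depth and Rn7sk and EV_RIP library 1 by its mitochondrial share, and the counts of calls are given with and without them. The part of these differences in the gene results was not tested beyond that.

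The negative cells carry the alpha cell label and had a transcriptome of that kind. Gcg, the glucagon gene, had 12019, 8777, 7661 and 8559 CPM in negative cells, against 8505, 11048, 10096 and 6386 CPM in EV_RIP, and the groups overlapped (log2 change 0.04, SE 0.18, edgeR adjusted p = 0.902). Ins2 had 5.13, 2.33, 1.92 and 1.59 CPM in negative cells, against 2.06, 3.39, 1.00 and 0.518 CPM in EV_RIP, and did not pass (log2 change 0.67, edgeR adjusted p = 0.371). Ins1, the second mouse insulin gene and a near-identical copy, had counts in 2 of 4 negative libraries, at 0.355 and 0.874 CPM, and no more than 0.0589 CPM in EV_RIP (edgeR adjusted p = 0.0771). Per length, Gcg averaged 8442 FPKM in negative cells and 8206 FPKM in EV_RIP, and Ins2 averaged 2.07 FPKM in negative cells and 1.32 FPKM in EV_RIP. The alpha cell factors Irx1 (93.8 to 163 CPM in negative cells, 108 to 162 in EV_RIP) and Irx2 were present. Of 7 beta cell markers 3 had a mean over 1 CPM in each group: Ins2, Mafa (1.08 to 1.68 CPM in negative cells, 0.994 to 1.47 CPM in EV_RIP) and Nkx6-1 (50.8 to 77.3 CPM in negative cells, 52.2 to 72.2 CPM in EV_RIP), while Pdx1 was at 0 in all 8 libraries.

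Markers of other cell types were low in both groups. The summed level of 6 leukocyte markers was 21.4 to 31.1 CPM in negative cells and 15.6 to 20.5 CPM in EV_RIP, and that of 4 endothelial markers 2.12 to 5.89 CPM in negative cells and 1.13 to 1.87 CPM in EV_RIP. For 5 fibroblast markers, with Col3a1 at 0, it was 5.84 to 9.52 CPM in negative cells and 3.25 to 11.9 CPM in EV_RIP, and for 6 acinar and duct markers, with Prss1 at 0, 20.6 to 25.2 CPM in negative cells and 10.3 to 14.8 CPM in EV_RIP. Pecam1, an endothelial adhesion molecule, had 1.49, 3.32, 4.21 and 3.97 CPM in negative cells, against 0.730, 1.31, 1.05 and 1.06 CPM in EV_RIP (log2 change 1.61, edgeR adjusted p = 0.0219). In a wider list of 7 endothelial markers only Pecam1, Esam and Tek had enough counts to be tested. All 3 were called higher, where 8.17% of all genes were. The count became 1, 1 and 0 without negative libraries 2, 3 and 4, 0 without EV_RIP library 1 and 1 without EV_RIP library 3. The other 4 were not tested, among them Kdr, with 0 to 0.314 CPM in negative cells and 0.0621 to 0.354 CPM in EV_RIP. The part of these low levels in the results was not tested. In bulk RNA, more cells of a type and more RNA per cell cannot be told apart.

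Smndc1 itself, on chromosome 19 (53379390 to 53390578, GRCm38), had 23.9, 43.4, 36.3 and 44.6 CPM in negative cells, against 37.6, 54.9, 39.3 and 46.3 CPM in EV_RIP. Only negative library 1 lay under the EV_RIP range by more than a few CPM, and the groups overlapped. The log2 change was -0.27 (SE 0.20, 95% interval -0.70 to 0.17) and did not pass (edgeR adjusted p = 0.378). Knockdown was thus not detectable in the mRNA of these cells, which carry the shRNA by label, while positive cells had 16.6, 22.4, 16 and 25.2 CPM.

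Against EV_RIP, 1544 of 18897 genes tested were higher in negative cells (8.17% of the genes, edgeR quasi-likelihood test, Benjamini-Hochberg adjusted p under 0.05) and 1076 were lower (5.69%). Calls of a higher level were larger in size: 927 of them exceeded a 2-fold difference, against 101 of the calls of a lower level. They also lay more often at low levels. Of the higher calls 492 had a mean under 1 CPM and 406 one of 1 to 10 CPM, against 15 and 101 of the lower calls. The part of level in the difference in size was not tested. In 14.4% of all genes tested the 4 negative libraries did not overlap the 4 EV_RIP libraries. The median log2 change over all genes was -0.01.

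The negative libraries did not carry these differences evenly. Relative to the EV_RIP mean, the genes called higher had a median log2 difference of 0.39 in negative library 1, against 1.32, 1.18 and 1.54 in libraries 2 to 4, and the genes called lower had -0.26, against -0.66, -0.65 and -0.76. Library 1, which lies closest to EV_RIP, also had the lowest Smndc1 and the lowest Rn7sk of the 4. Without it the counts were 3036 higher and 2795 lower, while leaving out negative library 2 gave 304 and 88, library 3 gave 771 and 323, and library 4 gave 127 and 32. Leaving out EV_RIP library 1 gave 359 and 180, and EV_RIP library 3 gave 654 and 468. Without negative libraries 3 and 4 together only 4 genes were called higher and 0 lower, with 2869 genes at an unadjusted p under 0.05. Every list described here then had 0 calls in either direction, except 1 higher call among the immediate-early factors and 1 among the metal and oxidative stress genes. Of 130 genes followed through all alternatives of this contrast 123 were called, and 43 of them kept their call whichever single library was left out. Egr1 and Mt2 alone did so in every alternative tried. Since the strand setting of the counting is not stated, genes that overlap an opposite-strand gene are uncertain by the share of exonic bases involved, among them Jund (52.6%), Txnip (19.4%), Bhlhe41 (19.0%), Hspa1a (19.0%), Nfkb2 (18.1%), Snhg16 (17.9%) and G6pdx (13.6%).

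**Figure D1:**
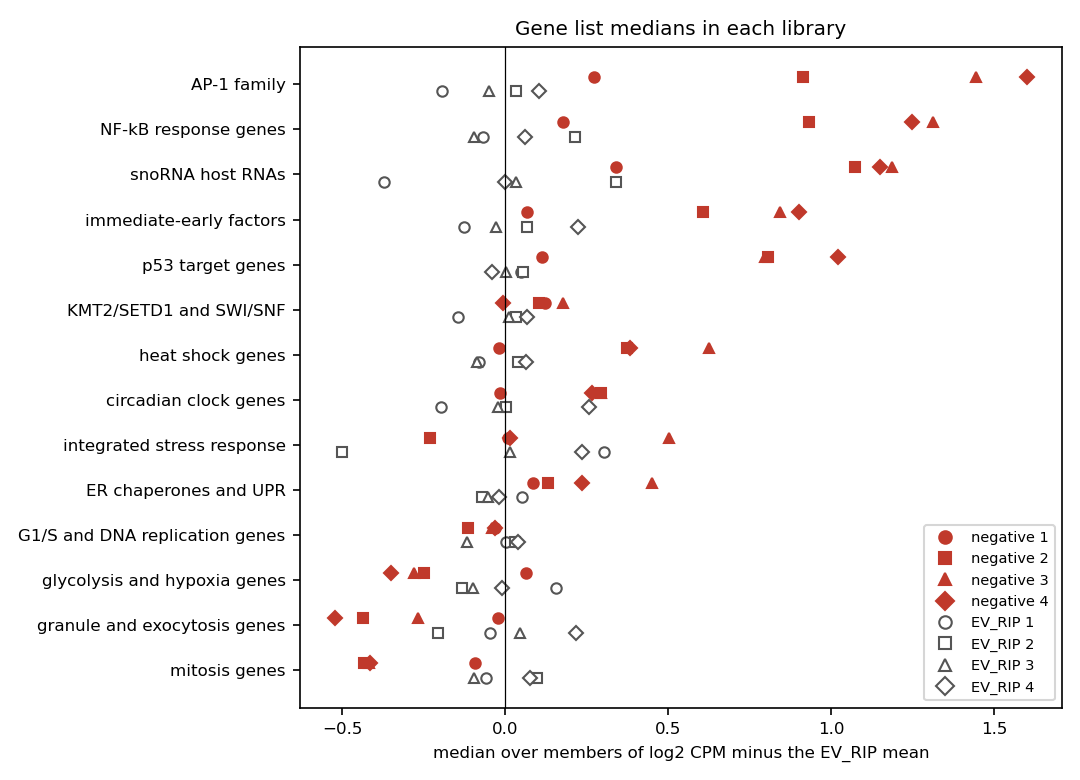
Median over the members of each gene list of log2 CPM minus the EV_RIP mean, in the 4 negative libraries (filled) and the 4 EV_RIP libraries (open), 1 symbol per replicate number. Negative libraries 2 to 4 lie to the right for AP-1, NF-kB, snoRNA host and p53 lists and to the left for mitosis genes, while negative library 1 stays near EV_RIP.

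**Figure D2:**
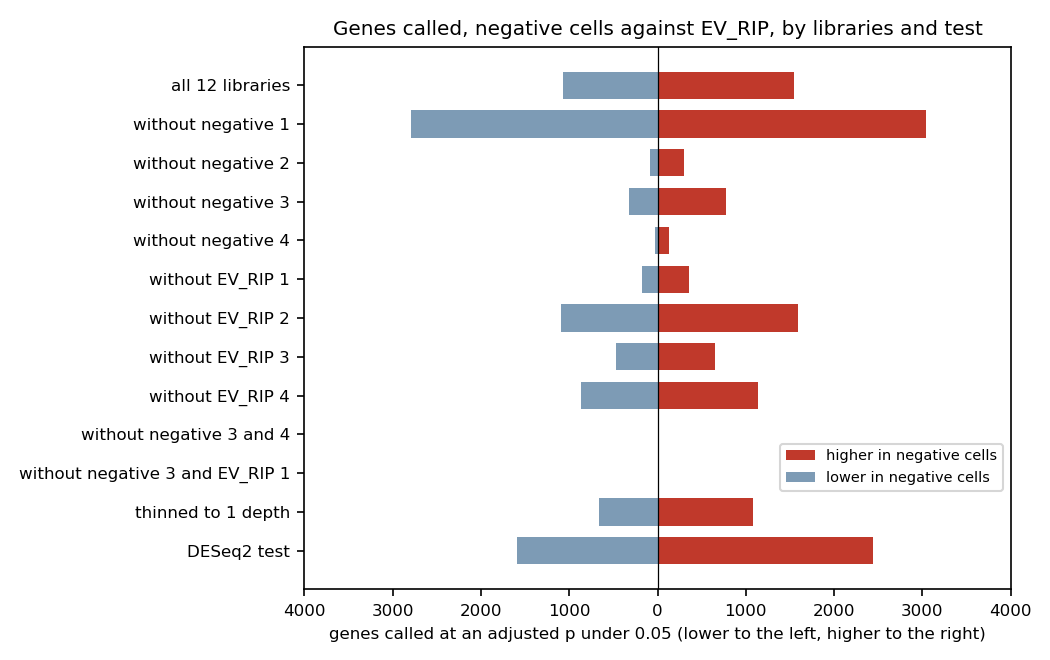
Number of genes called higher (right) and lower (left) in negative cells than in EV_RIP at an adjusted p under 0.05, with all libraries, with libraries left out, with counts thinned to the shallowest library and with the DESeq2 test. The count of genes called higher runs between 127 and 3036 when a single negative library is left out.

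Targets of p53 were higher as a group: 16 of 36 tested members rose and 0 fell, where 8.17% of all genes rose, and the list's median log2 change was 0.72. The feedback regulators led. Mdm2, which marks p53 for degradation, had 164, 526, 424 and 616 CPM in negative cells, against 88.3, 157, 113 and 117 CPM in EV_RIP (log2 change 1.86, SE 0.32, edgeR adjusted p = 0.00938). Libraries 2 to 4 were far above EV_RIP, and library 1 lay just above the highest control. All 4 feedback genes rose, the others being Trp53inp1 (log2 change 1.29, a p53-induced nuclear protein), Ccng1 (1.26, cyclin G1) and Ppm1d (0.60), a phosphatase of p53 chosen after its values were seen. The Mdm2 stretch printed here is from the RefSeq promoter window of the GRCm38 build. It is shown for a match to a single p53 binding unit (capitals), with 186 bases between the match's first base and the annotated start. A single unit is only a part of a full p53 binding site, and full sites were not searched for.
Mdm2 promoter, chr10:117710895-117710984, minus strand: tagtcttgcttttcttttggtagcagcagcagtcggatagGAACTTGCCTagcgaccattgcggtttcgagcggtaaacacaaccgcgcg
A match to a single unit was in 12 of 42 promoter windows of the list (28.6%), against 8.36% of all 32851 windows. Windows were searched on both strands from 250 bases before to 50 after a start. The list was drawn up as p53 targets, so its share is no result of these data. Among windows of genes called higher the share was 5.72%, against 7.05% for all genes tested.

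Among the arrest genes 5 of 7 rose. Cdkn1a, the cyclin-dependent kinase inhibitor p21, had 277, 694, 528 and 779 CPM in negative cells, against 264, 245, 215 and 230 CPM in EV_RIP (log2 change 1.26, SE 0.24, edgeR adjusted p = 0.0116). The groups did not overlap, but library 1 was only slightly above the highest control, and the call was lost without negative library 4. Gtse1, a p53 regulator of the G2 and S phases, had a log2 change of 1.18, and Btg2, an antiproliferative factor, 0.72. Of 10 death genes tested 4 rose. Bbc3, which encodes the BH3-only protein PUMA, had 7.98, 17.6, 23.3 and 25.0 CPM in negative cells, against 6.13, 5.80, 5.25 and 4.62 CPM in EV_RIP (log2 change 1.75, SE 0.29, edgeR adjusted p = 0.00801). Apaf1, the core of the apoptosome, also rose (1.04), as did the death receptor gene Eda2r (1.72), which had at most 4.76 CPM. Bax, another p53 target of the mitochondrial death pathway chosen after its values were seen, had a log2 change of 0.06 and did not pass (edgeR adjusted p = 0.768).

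Of the metabolic targets 2 of 9 rose, and of the repair targets 1 of 6. Sesn2, a sestrin that restrains mTORC1, had a log2 change of 0.87 and the thiamine transporter gene Slc19a2 0.96, while Gls2, a glutaminase, had -0.68 and did not pass (edgeR adjusted p = 0.0734). Polk, a translesion DNA polymerase, had 12.9, 37.4, 34.7 and 44.9 CPM in negative cells, against 10.2, 12.1, 11.6 and 15.6 CPM in EV_RIP (log2 change 1.39, edgeR adjusted p = 0.0144). Its library 1 value lay inside the EV_RIP range. The nucleotide excision repair genes Ercc5 (0.27) and Ddb2 (-0.27) did not pass. The p53 count of 16 fell to 9 without negative library 2 and to 5 without library 4, and without library 1 and without EV_RIP library 2 there were 3 and 1 lower calls.

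Members of AP-1, the dimer family of FOS, JUN, ATF and small MAF proteins, rose in 8 of 15 cases tested, and 0 fell. The share that rose over all genes was 8.17%, and the list's median log2 change was 1.23. Fos had 43.6, 129, 110 and 156 CPM in negative cells, against 9.05, 12.6, 11.2 and 23.8 CPM in EV_RIP (log2 change 2.96, SE 0.55, edgeR adjusted p = 0.0112). Every negative library was above every EV_RIP library, library 1 included. Fosb had a log2 change of 3.71. Junb had 17.6, 39.0, 86.1 and 70.1 CPM in negative cells, against 9.09, 11.7, 8.81 and 10.5 CPM in EV_RIP (log2 change 2.39, edgeR adjusted p = 0.00778), and Jun a log2 change of 1.95. Atf3, a stress-induced repressor, had 25.3, 82.0, 99.4 and 114 CPM, against 11.4, 18.5, 13.2 and 16.6 CPM in EV_RIP (log2 change 2.42, SE 0.41, edgeR adjusted p = 0.00844). The small MAF genes Mafk (1.38), Mafg (0.44) and Maff (1.70) all rose. Fosl2 (-0.24), Jund (0.63) and Atf2 (0.26) did not pass, so the rise was not shared by every member. The count of 8 became 5 without negative library 4.

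Egr1, a zinc finger factor of the immediate-early class, had the smallest p of all genes tested. It had 11.9, 17.6, 26.8 and 26.7 CPM in negative cells, against 1.81, 2.76, 1.88 and 2.82 CPM in EV_RIP (log2 change 3.14, SE 0.30, 95% interval 2.51 to 3.78, edgeR adjusted p = 0.000616). Even the lowest negative library had several times the level of the highest EV_RIP library. In its list of 26 immediate-early factors 7 rose and 0 fell, against 8.17% of all genes that rose, and the median was 0.83. Myc had 8.11, 27.4, 44.8 and 47.8 CPM in negative cells, against 3.48, 7.96, 4.99 and 6.71 CPM in EV_RIP (log2 change 2.45, edgeR adjusted p = 0.0118), library 1 being level with the top control. Klf10, a TGF-beta-inducible factor, had a log2 change of 1.51, Klf6 1.34, Gadd45b and Gadd45g, stress sensors of the growth arrest family, 1.88 and 1.60, and Arc 1.66 at no more than 1.59 CPM. Egr3 (1.2) and Nab2, a corepressor of EGR proteins (-0.31), did not pass. The count of 7 became 13 without negative library 1 and 2 without library 4.

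Feedback on MAP kinase signalling showed little of this: 2 of 18 genes rose and 1 fell, with a median of 0.10. Those shares are near the 8.17% and 5.69% of all genes that rose and fell. Dusp4, a MAP kinase phosphatase, had a log2 change of 1.16 and Spred1, an inhibitor of Ras signalling, fell (-0.65, edgeR adjusted p = 0.0185), a call lost without negative library 2, 3 or 4. Zfp36, whose product tristetraprolin destabilises AU-rich mRNAs, had 14.5, 32.5, 19.5 and 23.5 CPM in negative cells, against 5.27, 7.47, 6.09 and 8.07 CPM in EV_RIP (log2 change 1.75, SE 0.27, edgeR adjusted p = 0.00737). The groups were well apart. Without negative library 1 there were 4 calls of a higher level in this list and 2 of a lower one. The Zfp36 promoter stretch is shown for its CArG box (capitals), the site of serum response factor, with 58 bases from its first base to the annotated start.
Zfp36 promoter, chr7:28379237-28379326, minus strand: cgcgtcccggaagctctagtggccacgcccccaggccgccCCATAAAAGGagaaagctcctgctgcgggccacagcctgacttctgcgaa
A CArG box was in 5 of 32 windows of the immediate-early list (15.6%), against 1.63% of all windows. Among windows of genes called higher it was in 1.49%, against 1.36% for all genes tested.

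Genes of the NF-kB response rose in 7 of 12 tested members, against 8.17% of all genes, 0 fell, and the median was 1.02. Tnfaip3, the ubiquitin-editing inhibitor A20, had 2.56, 6.69, 8.17 and 11.7 CPM in negative cells, against 0.605, 1.35, 1.39 and 1.72 CPM in EV_RIP (log2 change 2.50, edgeR adjusted p = 0.00743). Nfkbia, the inhibitor I-kappa-B alpha, had 13.4, 22.7, 49.4 and 44.8 CPM, against 10.8, 11.4, 10.5 and 12.7 CPM in EV_RIP (log2 change 1.5, SE 0.32, edgeR adjusted p = 0.0141). Both negative regulators were lowest in library 1 and did not overlap EV_RIP. The subunit gene Nfkb2 had a log2 change of 0.87. Of 19 listed members 7, among them the cytokine genes Ccl2, Cxcl1, Cxcl2 and Tnf, had too few counts to be tested. The NF-kB count of 7 became 3, 4 and 1 without negative libraries 2, 3 and 4 and 3 without EV_RIP library 1 or 3. Nfkbia's promoter stretch carries a kappaB site (capitals), with 29 bases from its first base to the start.
Nfkbia promoter, chr12:55492648-55492716, minus strand: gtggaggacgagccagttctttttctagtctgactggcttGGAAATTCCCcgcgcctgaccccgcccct
The kappaB site was in 55.0% of the list's windows and in 4.51% of all windows. Among windows of genes called higher it was in 5.96%, against 5.23% for all genes tested.

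Of 16 interferon response genes tested 5 rose and 0 fell, at low levels, where 8.17% of all genes rose. Mx2, a dynamin-like antiviral GTPase, had 1.47, 3.16, 3.61 and 3.45 CPM in negative cells, against 0.750, 0.814, 0.777 and 0.745 CPM in EV_RIP (log2 change 1.89, edgeR adjusted p = 0.00707). Rsad2, the antiviral enzyme viperin, had a log2 change of 1.16 and Ddx58, the RNA sensor RIG-I, 0.96. The count of 5 became 8, 3 and 1 without negative libraries 1, 2 and 4 and 3 without EV_RIP library 1.

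The clock list had 5 of 22 members higher and 0 lower, against 8.17% of all genes higher, and the median was 0.18. Nr1d1, the REV-ERB alpha repressor, had 120, 452, 424 and 658 CPM in negative cells, against 50.1, 116, 66.8 and 58.3 CPM in EV_RIP (log2 change 2.50, SE 0.39, edgeR adjusted p = 0.0074). Ciart, a repressor of CLOCK and BMAL1, had 10.9, 34.8, 45.3 and 44.9 CPM, against 4.48, 6.49, 5.28 and 9.54 CPM in EV_RIP (log2 change 2.39, edgeR adjusted p = 0.00801). In both, library 1 was close to the highest control and the rest were several times higher. The repressors Bhlhe41 (1.37) and Per1 (0.83) rose as well. The activators were level: Clock had a log2 change of -0.12 (edgeR adjusted p = 0.607) and Arntl 0.04. Of the D-box factors, which are outputs of the clock, Dbp had 0.79 (edgeR adjusted p = 0.0609), Hlf -0.53 and Tef 0.21, and 0 of 4 passed. The count of 5 became 3 without negative library 2, negative library 4 or EV_RIP library 1, and 2 and 1 members were called lower without negative library 1 and EV_RIP library 2.

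Ciart, Per1 and Bhlhe41 each have the E-box CACGTG in their RefSeq window. The Ciart stretch holds 3 of them (capitals), which start 116, 58 and 44 bases before the annotated start.
Ciart promoter, chr3:95882229-95882384, minus strand: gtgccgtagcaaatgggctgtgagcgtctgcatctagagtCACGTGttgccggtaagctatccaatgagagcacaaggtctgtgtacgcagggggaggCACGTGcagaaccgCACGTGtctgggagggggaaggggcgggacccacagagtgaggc
Per1 promoter, chr11:69098743-69098828, plus strand: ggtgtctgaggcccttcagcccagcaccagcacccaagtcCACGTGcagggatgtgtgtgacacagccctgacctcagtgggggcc
Bhlhe41 promoter, chr6:145865528-145865613, minus strand: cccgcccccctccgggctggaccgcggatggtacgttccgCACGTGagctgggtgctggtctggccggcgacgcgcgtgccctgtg
In the clock list 6 of 28 windows (21.4%) held this E-box, a palindrome that reads the same on both strands, against 7.15% of all windows. Among windows of genes called higher 9.95% held it, against 9.33% for all genes tested.

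**Figure D3:**
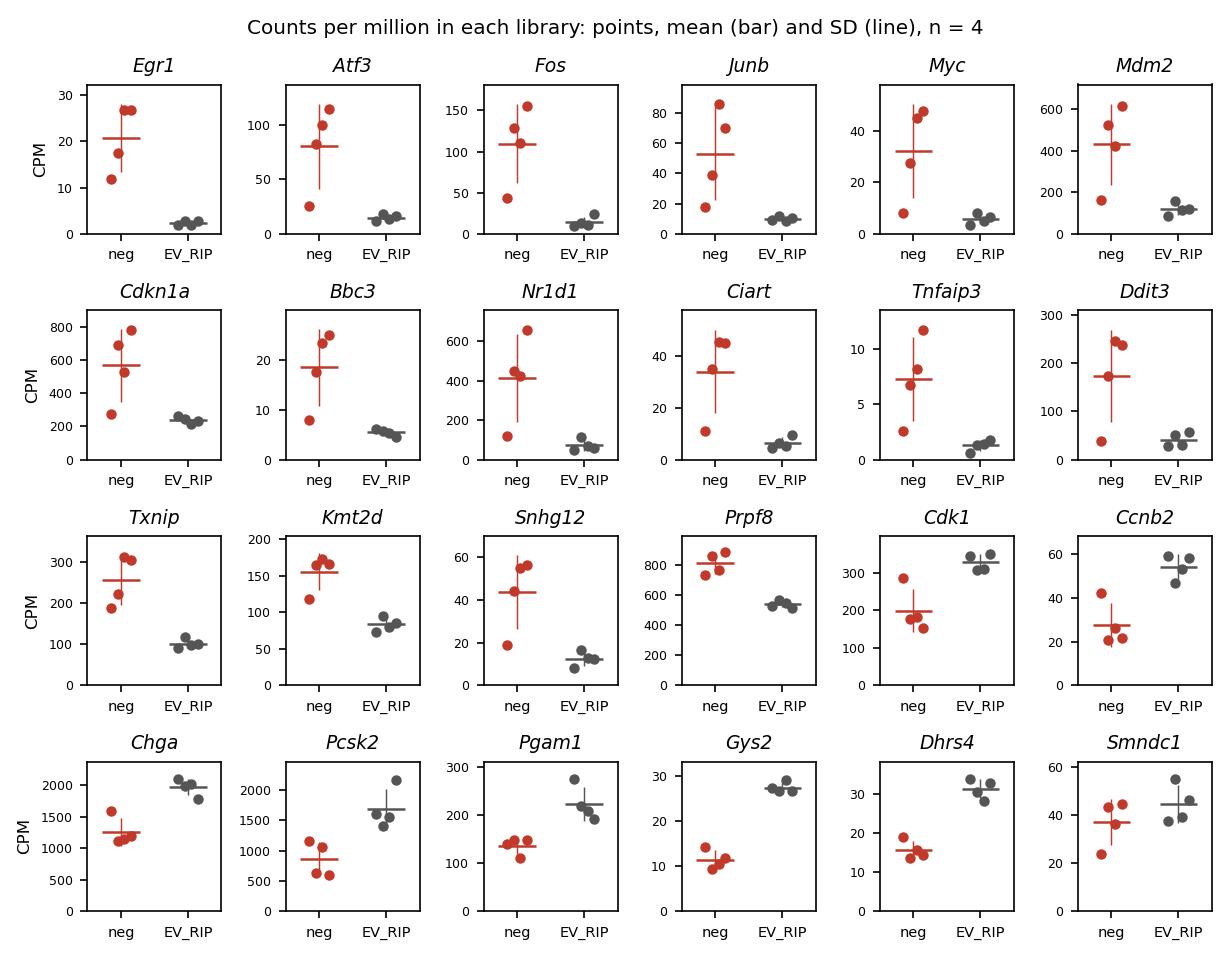
Level in CPM of 24 genes in the 4 negative libraries (left) and the 4 EV_RIP libraries (right), with the mean (bar) and SD (line) of each group. Egr1 reached 11.9 to 26.8 CPM in negative cells and at most 2.82 CPM in EV_RIP, Gys2 9.37 to 14.2 CPM in negative cells and 26.5 to 29.1 CPM in EV_RIP, while Smndc1 overlaps between the groups.

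Heat shock genes rose in 6 of 21 tested members and 0 fell, against 8.17% of all genes that rose, and the median was 0.29. The inducible HSP70 genes varied most: Hspa1b had 1.99, 4.46, 73.6 and 17.3 CPM in negative cells, against 1.04, 0.648, 1.54 and 3.19 CPM in EV_RIP (log2 change 3.89, SE 1.01, edgeR adjusted p = 0.0247). Library 3 was far above the rest and library 1 within the EV_RIP range, and reads of Hspa1b and its near-identical copy Hspa1a (log2 change 3.99) may be split between them. Hsph1, the HSP110 exchange factor, had 237, 507, 790 and 631 CPM, against 217, 253, 203 and 286 CPM in EV_RIP (log2 change 1.17). Dnajb1 (0.89), the cochaperone Bag3 (0.87) and Hsp90aa1 (0.60) rose, and the factor genes Hsf1 and Hsf2 (0.08 and 0.11) did not pass. The count of 6 became 12 without negative library 1, 3, 1 and 0 without libraries 2, 3 and 4, 0 without EV_RIP library 1 and 1 without EV_RIP library 3.

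In the integrated stress response, which acts through the transcription factors ATF4 and CHOP, 3 of 22 genes rose and 1 fell. Those shares are near the 8.17% and 5.69% of all genes, and the median was -0.04. Ddit3, which encodes CHOP, had 37.8, 175, 246 and 237 CPM in negative cells, against 27.9, 50.4, 29.5 and 56.6 CPM in EV_RIP (log2 change 2.08, SE 0.45, edgeR adjusted p = 0.0155), library 1 being inside the EV_RIP range. Ppp1r15a, the GADD34 phosphatase subunit, had a log2 change of 1.98 and the pseudokinase gene Trib3 1.22. The amino acid arm did not rise: 0 of 11 genes were higher, and Shmt2, a mitochondrial serine enzyme, was lower (-0.74, edgeR adjusted p = 0.0499). The 3 calls of a higher level became 7 without negative library 1, 0 without library 4 and 1 without EV_RIP library 1. The 1 lower call became 3 without negative library 1 or EV_RIP library 2. Shmt2 lost its call without any single library other than negative library 1 or EV_RIP library 2.

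Of 23 ER chaperone and unfolded protein genes 3 rose and 0 fell, a share near the 8.17% of all genes that rose. Hspa5, the ER chaperone BiP, had 913, 1494, 1942 and 1724 CPM in negative cells, against 853, 777, 753 and 923 CPM in EV_RIP (log2 change 0.88, SE 0.20, edgeR adjusted p = 0.0167). Libraries 2 to 4 were above all controls and library 1 was not. Dnajb9 (1.05) and Creld2 (0.72), both ER stress-induced, also rose. The count of 3 became 8, 1 and 0 without negative libraries 1, 2 and 4.

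In the metal and oxidative stress list 4 of 16 genes rose and 2 fell, where 8.17% and 5.69% of all genes did. Mt2 and Mt1, the metallothioneins, which bind zinc, had log2 changes of 2.65 (SE 0.28, edgeR adjusted p = 0.0012) and 1.61. Mt2 had 5.81, 9.37, 10.1 and 13.3 CPM in negative cells, against 1.90, 1.94, 1.00 and 1.26 CPM in EV_RIP, so that every negative library was above every control. It shares 73.5% of its exonic bases with a gene on the opposite strand, and its counts are uncertain to that extent. Mtf1, the metal-sensing transcription factor, had a log2 change of 0.65, Hmox1, heme oxygenase, 1.65 and G6pdx, the first enzyme of the pentose phosphate pathway, -0.62. Calls of a higher level were 7 without negative library 1 and 1 without library 4. The 2 lower calls became 1 without negative library 2 or 3 or EV_RIP library 1, 3 or 4, and 0 without negative library 4.

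Mitosis genes were lower: 16 of 38 fell and 0 rose, where 5.69% of all genes fell, with a median of -0.33. Cdk1, the kinase that starts mitosis, had 286, 176, 184 and 154 CPM in negative cells, against 344, 308, 310 and 352 CPM in EV_RIP (log2 change -0.72, SE 0.17, edgeR adjusted p = 0.0178). Its groups did not overlap, although library 1 was near the controls. Ccnb2, a mitotic cyclin, had 42.2, 20.6, 26.1 and 21.8 CPM, against 59.3, 46.8, 53.1 and 58.0 CPM in EV_RIP (log2 change -0.97). Aurkb (-0.53), the centromeric histone gene Cenpa (-0.49), Birc5 (-0.50), the spindle midzone gene Prc1 (-0.68), the securin gene Pttg1 (-0.80) and the phosphatase gene Cdc25b (-0.71) fell too. By role, 7 of 12 cyclins and kinases, 5 of 16 spindle and kinetochore genes and 4 of 10 exit and checkpoint genes fell. This count was sensitive to single libraries: it was 1, 7 and 0 without negative libraries 2, 3 and 4, and 3 without EV_RIP library 1.

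Genes of the G1/S transition and replication did not follow, with calls near the shares of all genes (8.17% higher, 5.69% lower). Of 25 tested, Cdc6 (log2 change 0.43, edgeR adjusted p = 0.0266) and Mcm4 (0.39), which load and form the replicative helicase, were higher and Rrm1, a ribonucleotide reductase subunit, was lower (-0.50). Those calls became 5 higher and 2 lower without negative library 1, and all were lost without negative library 2, 3 or 4 or EV_RIP library 1 or 3. Without EV_RIP library 4 there was 1 higher and 0 lower. The Cdk1 and Ccnb2 stretches are shown for TTTGAA (capitals), the cell cycle homology region through which mitotic genes are held down outside their phase. Cdk1 has it starting 71 and 15 bases before the annotated start, and Ccnb2 at 167 bases.
Cdk1 promoter, chr10:69352913-69353023, minus strand: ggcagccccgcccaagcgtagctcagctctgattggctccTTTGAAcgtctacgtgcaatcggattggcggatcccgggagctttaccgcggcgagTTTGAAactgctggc
Ccnb2 promoter, chr9:70421676-70421761, minus strand: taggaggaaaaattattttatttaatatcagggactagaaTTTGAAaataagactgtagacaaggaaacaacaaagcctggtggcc
It was in 69.7% of the windows of the mitosis list and in 17.9% of all windows, on either strand. Among windows of genes called lower it was in 14.0%, against 12.4% for all genes tested.

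Granule and exocytosis genes were lower in 7 of 32 cases and higher in 0, where 5.69% of all genes fell. The list's median was -0.31. Chga, the granule protein chromogranin A, had 1593, 1119, 1140 and 1203 CPM in negative cells, against 2096, 1998, 2024 and 1791 CPM in EV_RIP (log2 change -0.65, SE 0.13, edgeR adjusted p = 0.0124). All negative libraries were below all controls. Ptprn (-0.95), a granule membrane phosphatase-like protein, and Scg5 (-0.96), the chaperone of PCSK2, fell, as did the exocytosis genes Snap25 (-0.77), Rph3a (-1.39) and Syt7 (-0.54) and the gap junction gene Gjd2 (-1.34). The count of 7 became 12, 1, 4 and 0 without negative libraries 1 to 4, and 3, 3 and 4 without EV_RIP libraries 1, 3 and 4.

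Pcsk2, the protease that cuts proglucagon in alpha cells, had 1163, 637, 1053 and 601 CPM in negative cells, against 1600, 1406, 1555 and 2166 CPM in EV_RIP (log2 change -0.96, SE 0.21, edgeR adjusted p = 0.0148). Negative libraries 1 and 3 were nearer to the controls than libraries 2 and 4. Pcsk2 and the pioneer factor gene Foxa2 (-0.51) were the 2 of 17 alpha cell genes that fell, against 5.69% of all genes, and 0 rose. The count of 2 became 4 without negative library 1, 0 without library 2 or 4 and 1 without EV_RIP library 1. In the beta cell list 3 of 10 tested genes fell, where 5.69% of all genes did. They were the zinc transporter gene Slc30a8 (-0.89), the islet glucose-6-phosphatase gene G6pc2 (-1.08) and the prolactin receptor gene Prlr (-0.99). None of these 3 calls was kept without negative library 2, 3 or 4 or EV_RIP library 1 or 3. Of hormones of other islet cells, Ghrl, the ghrelin gene, rose to 1.15, 2.07, 1.44 and 3.18 CPM in negative cells, against 0.605, 0.864, 0.923 and 0.952 CPM in EV_RIP (edgeR adjusted p = 0.0246), and the call was lost without negative library 2 or 4 or EV_RIP library 1 or 3.

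Of 17 glycolytic enzymes 6 fell and 1 rose, where 5.69% of all genes fell and 8.17% rose. Aldoa, aldolase A, had 900, 754, 732 and 700 CPM in negative cells, against 1338, 1195, 1002 and 967 CPM in EV_RIP (log2 change -0.54, SE 0.12, edgeR adjusted p = 0.0158), and Pgam1 (-0.71) and Tpi1 (-0.61) fell as well. Eno3, the muscle enolase gene, was the enzyme that rose (0.83) and was chosen after its values were seen. Among 9 hypoxia and glucose sensing genes 3 rose, and whether the 2 groups of genes differ was not tested. Txnip, a thioredoxin-binding arrestin that limits glucose uptake, had 188, 223, 314 and 306 CPM in negative cells, against 90.1, 117, 98.9 and 101 CPM in EV_RIP (log2 change 1.34, SE 0.20, edgeR adjusted p = 0.00707). Its relative Arrdc4 had 20.3, 29.4, 35.0 and 39.3 CPM, against 11.9, 14.4, 11.8 and 13.5 CPM in EV_RIP (log2 change 1.26, edgeR adjusted p = 0.00666). Neither gene overlapped between the groups, and library 1 was above the controls in both. For both parts of the list together, 6 lower calls became 12, 1, 2 and 0 without negative libraries 1 to 4 and 1 without EV_RIP library 1, and 4 higher calls became 2 without negative library 3 or 4 or EV_RIP library 1. The E-box CACGTG, the core of the glucose-responsive element that the MLX partners bind, was in 4 of 38 windows of this list (10.5%). Among windows of all genes tested it was in 9.33%, a share near that of the list. Full glucose-responsive elements were not searched for. The Arrdc4 stretch is shown for this E-box (capitals), starting 193 bases before the annotated start.
Arrdc4 promoter, chr7:68749386-68749471, minus strand: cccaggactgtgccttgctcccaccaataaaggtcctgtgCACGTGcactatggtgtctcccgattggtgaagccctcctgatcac

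All 8 tested writers and erasers of the KMT2 and SETD1 complexes, which methylate histone H3 on lysine 4 or remove methyl groups from lysine 27, rose, with a median of 0.67. Kmt2d had 118, 165, 172 and 165 CPM in negative cells, against 73.2, 94.8, 80.0 and 85.4 CPM in EV_RIP (log2 change 0.89, SE 0.13, edgeR adjusted p = 0.00666). Every negative library was above every control. Kmt2a had a log2 change of 0.65 and Kmt2b 0.59. The 5 others, chosen after their values were seen, were Kmt2c (0.68), Kdm6a (0.74), Kdm6b (1.13), Setd1a (0.60) and Setd1b (0.45). Of 20 SWI/SNF and other remodellers 2 rose and 1 fell, shares near the 8.17% and 5.69% of all genes. Chd3 (1.47) and Arid1a (0.46) were higher and Smarcc1, a core SWI/SNF subunit, was lower (-0.46). Over both groups 10 higher calls became 2, 5 and 1 without negative libraries 2, 3 and 4 and 3 without EV_RIP library 1. The 1 lower call became 2 without negative library 1 and 0 without negative library 2, 3 or 4 or EV_RIP library 1.

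Of 38 SR proteins, hnRNPs and SR protein kinases 4 rose and 0 fell, a share near the 8.17% of all genes that rose. The 4 were the nuclear matrix factors Srrm1 (log2 change 0.66) and Srrm2 (0.63), Srsf4 (0.47), which shares 43.0% of its exonic bases with an opposite-strand gene, and the kinase gene Clk4 (0.79). None of 18 hnRNP genes passed the edgeR test, and Hnrnpl (-0.27), Hnrnpa2b1 (-0.36) and Hnrnpa1 (-0.37) had the smallest p. Without negative library 1 the list had 7 higher and 9 lower calls, against 2 and 0 higher without libraries 2 and 4 and 2 without EV_RIP library 1. In the SMN complex, to which SMNDC1 is related by its Tudor domain, Gemin6 fell (-0.52, edgeR adjusted p = 0.0388), a call lost without any single library other than negative library 1. Prpf8, the large scaffold protein of the spliceosome's core, had 734, 864, 770 and 887 CPM in negative cells, against 530, 571, 548 and 519 CPM in EV_RIP (log2 change 0.59, SE 0.09, edgeR adjusted p = 0.00743). Its groups did not overlap, which was a condition of the ranking that named it.

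Long RNAs that host snoRNAs in their introns rose in 9 of 19 tested cases, where 8.17% of all genes rose. That list had 0 lower calls and a median of 0.95. Snhg12 had 18.9, 44.4, 54.9 and 56.3 CPM in negative cells, against 8.23, 16.7, 12.6 and 12.3 CPM in EV_RIP (log2 change 1.80, SE 0.31, edgeR adjusted p = 0.00917), and Snhg16 (1.59) and Zfas1 (1.54) rose too. Library 1 was above all controls for Snhg12 and Zfas1. Snhg12 shares 19.6% of its exonic bases with another gene on its own strand and Zfas1 15.7%. The spliced RNAs of such hosts are known targets of nonsense-mediated decay. Of 17 factors of that pathway 3 rose, among them Smg8 (0.69) and Upf2 (0.54), and 0 fell, where 8.17% of all genes rose. The 9 snoRNA host calls became 5, 5 and 4 without negative libraries 2, 3 and 4 and 5 without EV_RIP library 1, and the 3 decay factor calls became 0, 1 and 0, and 0 without EV_RIP library 1 or 3. Of 24 ribosome biogenesis genes 5 rose and 0 fell, where 8.17% of all genes rose, led by Utp20 (0.99), Gnl3 (0.91) and Nop56 (0.53). That count became 8, 1, 2 and 0 without negative libraries 1 to 4 and 2 and 3 without EV_RIP libraries 1 and 3.

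Of 21 cholesterol synthesis genes only Tm7sf2, a sterol reductase gene, fell (log2 change -1.34, edgeR adjusted p = 0.00801), a share near the 5.69% of all genes. The count was 3 without negative library 1 and 2 without EV_RIP library 2. Of 8 steroid genes 2 fell and 1 rose, where 5.69% and 8.17% of all genes did. Hsd11b1, which regenerates glucocorticoid, and Akr1c14 fell (-1.27 and -1.26) and Hsd17b1 rose (1.2). The 2 lower calls were lost without negative library 2 or 4 and became 1 without EV_RIP library 1, and Hsd17b1 lost its call without negative library 4 or EV_RIP library 1. Among 11 cAMP response genes Gem (2.15, at no more than 1.27 CPM) rose and Pde4d (-0.52) fell, shares near those of all genes. These calls were lost without negative library 2, 3 or 4 or EV_RIP library 1, 3 or 4, and became 2 higher with 3 lower without negative library 1 and 2 with 2 without EV_RIP library 2. None of 12 mitochondrially encoded mRNAs passed.

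Ranked by p among genes with a mean of at least 10 CPM and no overlap, other genes stood beside the lists. Enc1, an actin-binding protein of the kelch family, had 44.7, 74.5, 64.7 and 92.6 CPM in negative cells, against 26.7, 30.3, 29.5 and 29.9 CPM in EV_RIP (log2 change 1.25, SE 0.17, edgeR adjusted p = 0.00619). Lpin1, the lipid phosphatase lipin 1, had a log2 change of 1.23, the magnesium transporter gene Slc41a1 0.82 and Rragd, a GTPase that recruits mTORC1 to lysosomes, 0.92. The smallest p among lower genes was that of Gys2, the liver form of glycogen synthase, with 14.2, 9.37, 10.5 and 11.7 CPM in negative cells, against 27.3, 26.6, 29.1 and 26.5 CPM in EV_RIP (log2 change -1.26, SE 0.15, edgeR adjusted p = 0.00256). Dhrs4, a retinal reductase, had 18.9, 13.6, 15.5 and 14.3 CPM, against 33.6, 30.5, 28.1 and 32.6 CPM in EV_RIP (log2 change -1.0, edgeR adjusted p = 0.00268). The ranking admitted only genes without overlap, so library 1 lay outside the EV_RIP range in all of them by that choice. Egr1, Kmt2d, Txnip, Arrdc4, Zfp36, Nr1d1, Bhlhe41 and Prpf8, described above, were also in this ranking, and the same holds for them.

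The further lower genes of that ranking were Tmem59l (-1.10), Iah1 (-0.90), Wdr83os (-0.97), Pts (-0.97), which makes the cofactor tetrahydrobiopterin, Ttyh2 (-0.78), the heparan sulfate sulfotransferase gene Hs3st1 (-0.96), Sox12 (-0.60), Tmem106c (-1.08), the ER thioredoxin gene Txndc12 (-0.85) and the kinetochore gene Spc25 (-1.0). Wdr83os shares 52.3% of its exonic bases with an opposite-strand gene. Spc25 had 124, 73.0, 95.9 and 72.9 CPM in negative cells, against 164, 178, 167 and 224 CPM in EV_RIP. All 10 kept their calls whichever single library was left out, which their choice for a small p and no overlap favours. No such call was kept with 2 libraries left out. Without negative libraries 3 and 4, or without EV_RIP library 1 and negative library 3, 0 genes were called lower.

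Calls also differed by kind of gene, described here with no test. Of 155 snoRNA genes 34 were called higher (21.9%) and 0 lower, with a median log2 change of 0.86, and of 34 genes of the misc_RNA class 10 were higher (29.4%). Such RNAs are read only in part by an mRNA kit, and Rn7sk, also a short noncoding RNA, was higher in negative libraries 2 to 4 than in any EV_RIP library. Without negative libraries 3 and 4 the snoRNA median was 0.94 with 0 genes called. Malat1, a nuclear long RNA, had 505, 648, 449.9 and 688 CPM in negative cells, against 109, 226, 286 and 197 CPM in EV_RIP (log2 change 1.49, edgeR adjusted p = 0.0112). Its groups did not overlap, and negative library 1, with little Rn7sk, lay within the range of the others.

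Among protein-coding genes with a mean of at least 5 CPM, 6.51% were called higher and 8.75% lower. The share called higher was 11.5% for genes with over 20 exons and 4.61% for those with 5 to 10 exons, and the share called lower was 3.16% and 10.7%. By exonic length, genes over 6 kb were called higher in 9.09% and lower in 4.53% of cases, and genes under 1.5 kb in 2.41% and 12.4%. The span of the gene on the chromosome did not follow one order: genes over 100 kb were called higher in 6.42% and lower in 7.29% of cases, genes of 20 to 100 kb in 7.52% and 6.53%, and genes under 5 kb in 4.41% and 13.2%. Levels moved with this too: 5.26% of genes with at least 100 CPM were called higher and 12.8% lower, against 11.6% and 0.355% of genes under 1 CPM. Gene length, exon number and level are linked to each other, and their separate parts were not tested.

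**Figure D4:**
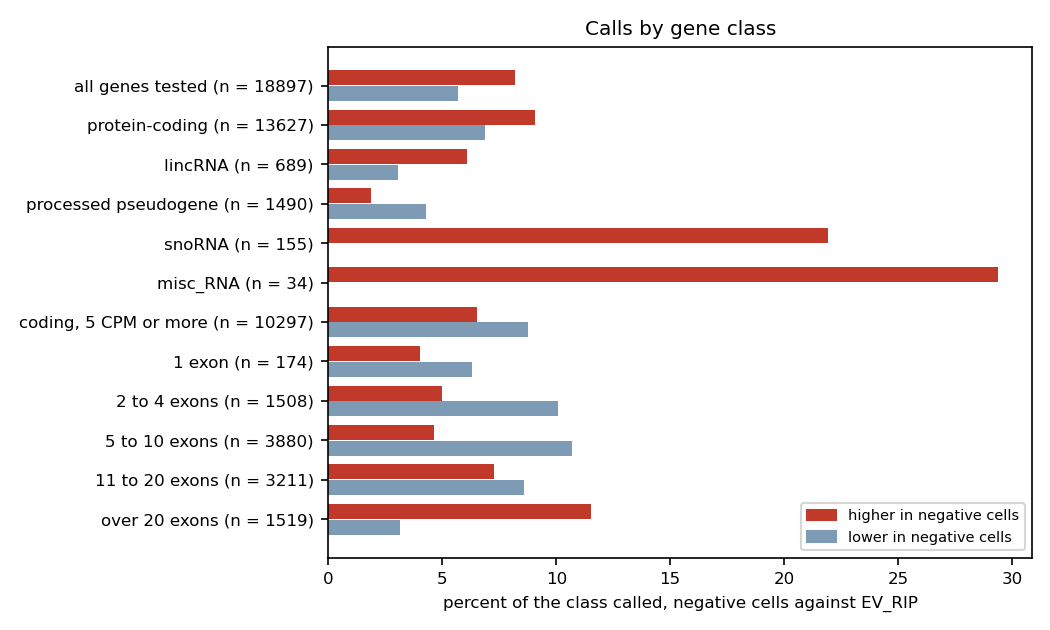
Percent of the genes of each class called higher (red) and lower (blue) in negative cells than in EV_RIP, by biotype and, for protein-coding genes with a mean of at least 5 CPM, by number of exons. The share called higher is 21.9% for snoRNA genes and 11.5% for coding genes with over 20 exons, against 8.17% of all genes tested.

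The second comparison set negative cells against positive cells, which carry the same shRNA and reporter. The negative libraries are the same as in the comparison with EV_RIP, so the 2 comparisons are not independent. Without pairing, edgeR called 0 of 18897 genes (percent called 0), with 1316 higher and 998 lower at an unadjusted p under 0.05, while the DESeq2 test called 205 higher and 110 lower and voom with quality weights 603 and 473. Leaving out negative library 1 gave 297 and 220, and positive library 4 gave 3 and 2. The labels state no pairing, but deviations from the group means correlated positively in all 4 same-numbered pairs (0.620, 0.355, 0.136 and 0.311). Negative library 2 with positive library 4 reached 0.281 and negative library 4 with positive library 2 0.141, both above pair 3. The other differently numbered libraries of these groups correlated at 0.040 or lower. With the number as a block, edgeR called 56 higher (0.296%) and 22 lower (0.116%) over the 12 libraries, and 850 of 17994 higher (4.72%) and 667 lower (3.71%) over the 8 libraries compared, a fit chosen after seeing the data. The count over 8 libraries became 182 and 90 without pair 2 and 435 and 418 without pair 4.

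Compared with positive cells as 4 pairs, negative cells had higher p53 targets: 20 of 35 tested were higher and 2 lower, where 4.72% and 3.71% of all genes in that fit were, with a median log2 difference of 0.61. Mdm2 had 164, 526, 424 and 616 CPM in negative cells, against 111, 150, 158 and 211 CPM in positive cells, and was higher in 4 of 4 pairs (log2 difference 1.34, edgeR adjusted p = 0.00032 in the paired fit). Cdkn1a (1.02), Bbc3 (0.81) and Zmat3, an RNA-binding p53 target (0.81), were also higher. In positive cells the level of Mdm2 was nearer to EV_RIP than that of negative libraries 2 to 4. Without pair 2 or 4 the 20 became 10 and 12, and the 2 lower became 0.

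The counts that follow are from the same paired fit, where 4.72% of all genes were higher in negative than in positive cells and 3.71% lower. Of 22 integrated stress response genes 11 were higher in negative than in positive cells and 0 lower, 7 without pair 2. Relative to the EV_RIP mean, that list's median was 0.01, -0.23, 0.50 and 0.01 in negative libraries 1 to 4. In positive libraries 1 to 4 it was -0.23, -0.57, -0.14 and -0.23, and EV_RIP libraries ranged from -0.50 to 0.30. Of 21 heat shock genes 10 were higher and 0 lower, 5 without pair 2. Atf3 had 25.3, 82.0, 99.4 and 114 CPM in negative cells, against 12.5, 21.2, 23.8 and 41.5 CPM in positive cells (log2 difference 1.62, edgeR adjusted p = 4.1e-05). Of 15 AP-1 genes 6 were higher, and of 25 immediate-early factors 10 were higher and 2 lower, both becoming 3 higher without pair 2, with 1 lower immediate-early factor without pair 2, 3 or 4. Egr1 went the other way, with 11.9, 17.6, 26.8 and 26.7 CPM in negative cells, against 42.2, 31.5, 59.3 and 29.4 CPM in positive cells (-0.98, edgeR adjusted p = 0.0065). Nr1d1 did not pass (0.51, edgeR adjusted p = 0.17). Mitosis genes were lower in 7 of 38 cases, but in 14, 1, 4 and 1 without pairs 1 to 4.

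For some genes that differed between negative and positive cells, the negative libraries overlapped EV_RIP. Clu, the extracellular chaperone clusterin, had 37, 45.9, 56.3 and 43.4 CPM in negative cells and 27.9, 23.3, 26.8 and 22.0 CPM in positive cells, while EV_RIP ranged over 39.7 to 48.5 CPM (log2 difference from positive cells 0.85, edgeR adjusted p = 0.001 in the paired fit). Lonp1, the mitochondrial matrix protease, had 541 to 592 CPM in negative cells, against 341 to 401 CPM in positive cells, and EV_RIP ranged over 484 to 616 CPM. Akap6, Tmem63b and Vegfa had paired log2 differences of 0.90, 0.55 and 0.85, and their negative libraries also overlapped EV_RIP. Msn, the membrane linker moesin, had 177, 235, 162 and 196 CPM in negative cells, against 92.3, 78.3, 65.4 and 131 CPM in positive cells. EV_RIP ranged over 275 to 379 CPM, so that negative cells lay between both and did not overlap EV_RIP. The genes of this paragraph were ranked only if negative and positive libraries did not overlap, so that separation was fixed by the choice. Lower in negative than in positive cells were Mpzl1 (-0.60), Adgrg1 (-0.61), Bace2 (-0.73) and the oxytocin receptor gene Oxtr (-0.95). In these 4 genes too the negative libraries overlapped EV_RIP. They are 4 of the 8 genes ranked lower, and the rest are not reported here, so the overlap is not stated for all 8.

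The hormones and Smndc1 also differed between the sorted groups. Gcg had 12019, 8777, 7661 and 8559 CPM in negative cells, against 15403, 19422, 14369 and 14754 CPM in positive cells (paired log2 difference -0.80, edgeR adjusted p = 0.0022). Ins2 had 1.59 to 5.13 CPM in negative cells, against 6.12 to 13.7 CPM in positive cells (-1.95, edgeR adjusted p = 0.00014), a gene linked to the gate itself, since an insulin promoter drives the sorted reporter. Smndc1 was higher in negative cells in 4 of 4 pairs (0.86, edgeR adjusted p = 0.00095).

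**Figure D5:**
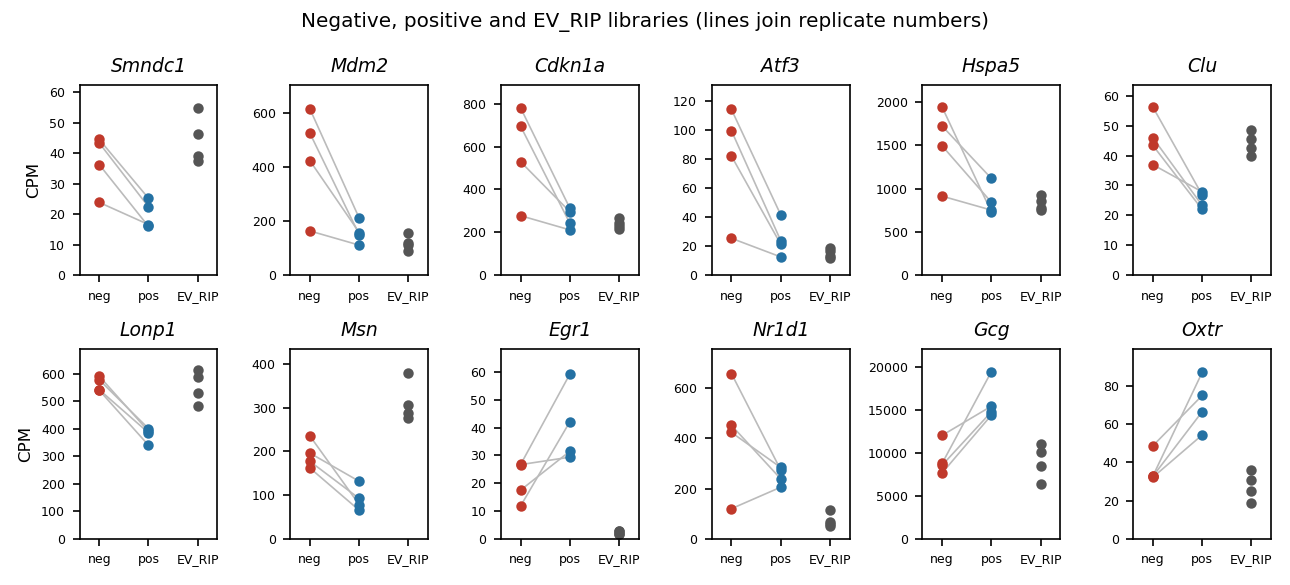
Level in CPM of 12 genes in negative, positive and EV_RIP libraries, with lines that join negative and positive libraries of the same replicate number. Mdm2, Cdkn1a and Atf3 are highest in negative libraries 2 to 4, Egr1 and Gcg are highest in positive cells, and Smndc1 is lowest in positive cells.

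Last, the change of negative cells against EV_RIP was set against that of unsorted knockdown cells against EV, in 1 fit of all 18 libraries. No gene of 20036 passed for the difference between the changes (edgeR interaction, percent called 0, smallest adjusted p = 0.0542), with 2612 genes at an unadjusted p under 0.05. The number called was 453 without negative library 1, 4 without EV_RIP library 4, 1 without EV library 1 and 186 with no filter on low counts. Smndc1 had a log2 change of -0.27 in negative cells and -1.96 in the unsorted knockdown (difference 1.66, SE 0.28, edgeR adjusted p = 0.0667), and Vegfa 0.36 in negative cells and -1.40 in the unsorted knockdown (difference 1.72, edgeR adjusted p = 0.0542). Dnhd1 (difference 2.42), Cdnf (2.15), Pnp (1.68) and Hsd17b7 (1.35) were relatively higher in negative cells and Cadm4 (-1.22) and Cep55 (-0.88) relatively lower, all short of the threshold.

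The 4 genes given as markers of these cells can be set side by side in both experiments. Egr1 had a log2 change of 3.14 in negative cells and 3.88 in the unsorted knockdown, while Mdm2 had 1.86 in negative cells and 0.44 in the unsorted knockdown. Atf3 had 2.42 in negative cells and 0.57 in the unsorted knockdown, and Nr1d1 2.50 in negative cells and 1.24 in the unsorted knockdown. The edgeR adjusted p of the difference was 0.552 for Egr1, 0.215 for Mdm2, 0.216 for Atf3 and 0.33 for Nr1d1, so none of the 4 was shown to differ between the experiments. The experiments also differ in the reporter, the sort and possibly the day.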

How the data were processed

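mRNA of alphaTC1 cells was read in paired ends of 75 bases from stranded libraries, per the labels' protocols. The submitters' processing notes name STAR 2.7.5a, Picard 2.19.2, DESeq2 1.30.0 and the GRCm38 build; no counting tool or strand option is given in the sources used here. The authors deposited raw read counts per Ensembl gene and FPKM values, which are scaled by gene length and library size. FPKM served only to compare levels between genes.

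Counts were fitted with edgeR 4.0.16 in R 4.3.3 (filterByExpr, TMM, quasi-likelihood test, Benjamini-Hochberg adjustment, threshold 0.05), with 1 fit over the 12 reporter libraries and 1 over all 18 for the comparison with the unsorted knockdown. Intervals are 95% t intervals with 9 residual and 5.58 prior degrees of freedom. CPM are TMM-scaled. The test was checked on simulated counts. Alternatives used DESeq2 1.42.0, limma 3.58.1 (voom), other filters, thinned counts and fewer libraries.

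Negative and positive libraries with the same number were treated as pairs where stated. Their deviations from the group means correlated positively in all 4 pairs (0.620, 0.355, 0.136 and 0.311). The value of pair 3 was lower than 0.281 and 0.141, which differently numbered libraries reached, so the pairing is least clear there. Whether replicates came from separate cultures is not stated, and the p-values rest on the variation among the libraries as they are, part of which may be technical. Genes named are the 4 markers, Smndc1, the hormones, the 12 higher and 12 lower genes with the smallest p among non-overlapping genes of at least 10 CPM, up to 3 per role of each list, and 8 per direction or comparison against positive cells and the unsorted knockdown. The genes ranked against positive cells also had a mean of at least 10 CPM and no overlap of negative and positive libraries. The members and the 32 gene lists were chosen with earlier results of these data known. Promoter windows come from RefSeq (GRCm38.p6), matched by symbol for 494 of 637 list genes. Some items are not reported here.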

Additional observations from a re-analysis of the deposited data

Results flagged for a closer look

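Of 266 groups of 4 values examined, 8 held a library whose gap to the nearest of the others was larger than the 95% limit of a test for single outlying values allows. Chance gives about 5% of groups, and 8 of 266 is a smaller share, so the number flagged is no more than chance gives. The cause was not tested for any of them.

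Negative library 1 was the one set apart in 4 cases. It was high for the checkpoint gene Mad2l1 (226 CPM, the other negative libraries 149 to 162 CPM) and for the exocytosis gene Rph3a (8.40 CPM, the others 2.4 to 2.66 CPM). It was low for Kmt2d (118 CPM, the others 165 to 172 CPM) and Kmt2b (93.4 CPM, the others 133 to 136 CPM). In all 4 genes it lay on the side of EV_RIP.

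Negative library 3 had the highest mitochondrial share, 3.94%, where the other negative libraries had 2.99% to 3.11%. In EV_RIP, library 4 was high for Gjd2 (170.7 CPM, the others 78.5 to 90.7 CPM) and Prlr (244.5 CPM, the others 105 to 124 CPM), and library 2 for G6pc2 (45.5 CPM, the others 33.7 to 35.7 CPM). These 3 genes were among those called lower in negative cells.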

How the results depend on the processing

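Against EV_RIP the edgeR fit gave 1544 genes higher and 1076 lower. The DESeq2 test gave 2441 and 1596, voom with quality weights 3882 and 3908, no filter on low counts 1829 and 1700, only the 8 libraries compared 843 and 446, and thinning to the shallowest library 1077 and 668. Leaving out single libraries gave 127 to 3036 higher and 32 to 2795 lower. Without negative libraries 3 and 4 it was 4 and 0, and without EV_RIP library 1 and negative library 3, chosen after seeing the data, 3 and 0. Fewer libraries also leave fewer degrees of freedom. The cause of the other shifts was not tested.

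Same-numbered negative and EV_RIP libraries correlated at 0.278, 0.487, -0.201 and -0.288, with both signs, so they were not treated as pairs in the main fit. With the replicate block the counts were 2421 and 2176. For negative against positive cells the unpaired edgeR fit called 0 and 0, DESeq2 205 and 110, voom 603 and 473, no filter 111 and 39, single omissions 0 to 297 and 0 to 220, the replicate block over 12 libraries 56 and 22, and over 8 libraries 850 and 667. Leaving out single pairs gave 182 to 882 higher and 90 to 698 lower, with 435 and 418 without pair 4. The difference from the unsorted knockdown had 0 genes, 186 with no filter and 0 to 453 with single omissions.

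Gcg, not called at 0.04, changed sign to -0.11 with voom and -0.028 with no filter, and ranged over -0.12 to 0.15 with single omissions. Jund, not called at 0.63, was -0.027 without negative libraries 3 and 4. The mitochondrial share differed by 0.566 percentage points and by -0.137 to 0.995 with single omissions, the lowest without EV_RIP library 1. Of the 123 named calls, 121 were lost without negative libraries 3 and 4, 80 without negative library 4, 52 without library 2, 45 without EV_RIP library 1, and 32 without negative library 3. Depth limits most the genes of few CPM in negative library 3.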
